A study of Rattus norvegicus with 6 samples.

Results

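The genes described here encode 7 subunits of the GABA-A receptor, *Gabra2*, *Gabra3*, *Gabra4*, *Gabra5*, *Gabrb1*, *Gabrb2* and *Gabrd*, out of 17442 genes named on the array. They were chosen by gene name, each was carried by 1 probe printed once, and all 7 were well above background and unsaturated on all 6 arrays. The GABA-A receptor is a pentameric chloride channel that opens when GABA, the main inhibitory transmitter of the brain, binds at the interfaces of alpha and beta subunits. In the hippocampus, most receptors at synapses contain a gamma subunit and serve fast inhibition. Receptors with the alpha-5 or the delta subunit lie largely outside synapses and give tonic inhibition. The beta subunits are needed for assembly and carry contacts with the proteins that move receptors to and from the membrane.

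The arrays measured pooled total RNA of the hippocampus of male Wistar rats, from a control group and from rats whose common carotid arteries had been tied on both sides with double ligatures (BCCAo), a model of lasting low blood flow to the brain. Each of the 6 groups had 1 array: the control, labelled 12 weeks of age, and the rats at day 21, 35, 45, 55 or 70 of the occlusion, labelled 13, 14, 15, 16 and 17 weeks. The label ages are 1 week apart and do not match the days, and a separate label describes all animals as 12 weeks old. The sources used here do not give the number of animals in each pool or any sham operation of the control. There were no replicates, so no value below has an error between animals and no test was possible. Slide 1 carried the control with the day 21 and day 35 arrays and slide 2 the arrays of days 45, 55 and 70, so for the later days the slide and the time cannot be told apart against the control.

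The measure is the processed intensity of a probe divided by the array's 75th percentile, which was 1243 to 1504 intensity units, and a difference is the log2 level of a day less that of the control. Between 74.5% and 80.2% of spots were well above background. The spread between spots of 1 probe, taken from probes of similar brightness printed 10 times, gives the technical error within an array. At the brightness of each member, 2 SD of a difference between 2 such spots came to 0.14 to 0.26 log2 units, and smaller differences lie within that spread. It covers neither animals, pooling nor labelling. Marker genes of hippocampal cells were read: 9 of 10 pyramidal and 9 of 10 dentate granule cell markers were well above background on all arrays. The remaining pyramidal marker, *Iyd*, was so on none. Detection alone does not check the tissue label, since 8 of 9 thalamic and 7 of 10 striatal markers on the array also passed on all arrays. In bulk RNA, fewer cells of a type and less RNA per cell cannot be told apart.

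The probes are shown because each gene rests on 1 of them. Positions are in rat build rn4, as the array files give them, and no annotation of that build was used, so exons and untranslated parts are not assigned. The *Gabra2* probe (transcript NM_001135779) lies at chr14:39661796-39662852 on the plus strand and the *Gabra3* probe (NM_017069) at chrX:158416663-158422492 on the minus strand. Both intervals are longer than the 60 bases of the probe, 1057 and 5830 bases, as when a probe crosses from an exon to another. The capitals mark the 33 of 54 aligned bases, 61.1%, that the probes have in common, when they are laid side by side without gaps. No other pair of member probes had more than 45.0% of at least 40 aligned bases in common.
Gabra2: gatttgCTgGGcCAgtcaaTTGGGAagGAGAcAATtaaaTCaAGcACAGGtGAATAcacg
Gabra3: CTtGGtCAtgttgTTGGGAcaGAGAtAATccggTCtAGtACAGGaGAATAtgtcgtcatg

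The *Gabra4* probe (NM_080587) lies at chr14:39122375-39122434 on the plus strand, the *Gabra5* probe (NM_017295) at chr1:108844189-108844248 on the minus strand and the *Gabrb2* probe (NM_012957) at chr10:27819086-27819145 on the plus strand. The *Gabrb2* sequence ends with the stop codon of the frame that starts at its first base, in capitals, so this probe reads the very end of the coding sequence. The *Gabrb1* probe (NM_012956) lies at chr14:38530433-38530492 on the minus strand and the *Gabrd* probe (NM_017289) at chr5:172203200-172203260 on the minus strand. The probes of *Gabra2*, *Gabra4* and *Gabrb1* therefore lie on the same chromosome.
Gabra4: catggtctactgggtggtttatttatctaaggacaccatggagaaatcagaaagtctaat
Gabra5: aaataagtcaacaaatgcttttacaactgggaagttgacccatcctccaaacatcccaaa
Gabrb2: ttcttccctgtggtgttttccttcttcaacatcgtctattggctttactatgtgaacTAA

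None of the 7 genes differed 2-fold from the control on any day. The background for that count was 5.44% of all genes at day 21, 1.56% at day 35, 6.35% at day 45, 5.59% at day 55 and 7.34% at day 70. The differences were small, and 3 patterns stood in the values: all 7 genes were below the control at day 21, *Gabrb2* was also low on all arrays of slide 2 and *Gabra3* on those of days 45 and 70, and the other 5 genes lay near the control from day 35 on, except for *Gabra2* at day 45 and small steps of *Gabra4* and *Gabrd*.

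Among the alpha subunits, *Gabra2* encodes a synaptic subunit of principal cells. Its signal was 74.1% of the array's 75th percentile in the control, then 68.4% at day 21, 72.03% at day 35, 57.6% at day 45, 72.5% at day 55 and 76.4% at day 70. The day 45 array was the low one, at -0.36 against the control, and the other 4 days lay within the spot spread of it. On slide 2 *Gabra2* was 0.33 higher at day 55 and 0.41 higher at day 70 than at day 45.

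*Gabra3*, which encodes a subunit better known from monoaminergic nuclei and cortex than from hippocampus, had a dim probe, at 9.75% in the control, 7.75% at day 21, 8.52% at day 35, 6.71% at day 45, 8.44% at day 55 and 6.995% at day 70. The control was its highest array. The differences were -0.33 at day 21, -0.54 at day 45 and -0.48 at day 70, beyond 2 SD of the spot spread (0.25), and -0.19 at day 35 and -0.21 at day 55, within it. The sizes depend on the processing: quantile normalization gave -0.26 at day 45 and -0.25 at day 70, and the authors' deposited values -0.25 and -0.27. Normexp background correction gave -0.20 at day 21. The spot spread was not computed for these other settings.

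*Gabra4*, a subunit that pairs with delta in dentate granule cells, was the steadiest of the alpha genes. Its levels were 72.6% in the control, 69.3% at day 21, 80.5% at day 35, 71.9% at day 45, 82.2% at day 55 and 81.1% at day 70, a range of 0.25 log2 units. Days 55 and 70 were 0.18 and 0.16 above the control, just past the spot spread of 0.15, and the day 35 difference of 0.15 fell just inside it. About 44.1% of all genes were at least as far from the control at day 55.

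*Gabra5* encodes the subunit of extrasynaptic receptors on pyramidal cells. It stood at 21.7% in the control, 17.5% at day 21, 22.9% at day 35, 20.2% at day 45, 21.4% at day 55 and 24.1% at day 70. Day 21 was the low array, at -0.31, and no other day was beyond the spot spread of 0.18. Within slide 1 the day 35 level was 0.38 higher than at day 21.

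Of the beta subunits, *Gabrb1* had levels of 349% in the control, 306% at day 21, 335% at day 35, 353% at day 45, 370% at day 55 and 363% at day 70. It was low at day 21 only, by a difference of -0.19, and the other days lay between -0.06 and 0.08, inside the spot spread. *Gabrb2*, a beta subunit of the most common synaptic receptor type in the brain, lay furthest from the control of the members. Its levels were 9.79% in the control, 6.98% at day 21, 9.21% at day 35, 5.36% at day 45, 6.63% at day 55 and 6.22% at day 70. The day 35 array was close to the control and the other days were all lower, by differences of -0.49 at day 21, -0.87 at day 45, -0.56 at day 55 and -0.65 at day 70. The day 45 level was 0.547 times the control, and 7.93% of all genes were at least as far from the control on that day. *Gabrb2* at day 45 and day 70 supplied both of the 2 values, out of 35, that were at least 1.5-fold lower, where the share of all genes was 12.7% at day 45 and 13.3% at day 70. These calls depend on the processing: no value was 1.5-fold lower under quantile normalization, normexp or the authors' deposited values, where *Gabrb2* at day 45 was at -0.57, -0.48 and -0.36, and 1 was under median scaling. No member was 1.5-fold lower at days 21, 35 and 55, where 5.38%, 4.2% and 11.0% of all genes were.

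*Gabrd* encodes the delta subunit of tonic receptors, known for dentate granule cells. Its levels were 171% in the control, 143% at day 21, 176% at day 35, 159% at day 45, 150% at day 55 and 181% at day 70. Day 21, at -0.26, and day 55, at -0.19, were beyond the spot spread of 0.14, whereas days 35, 45 and 70 lay between -0.10 and 0.08.

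**Figure D1:**
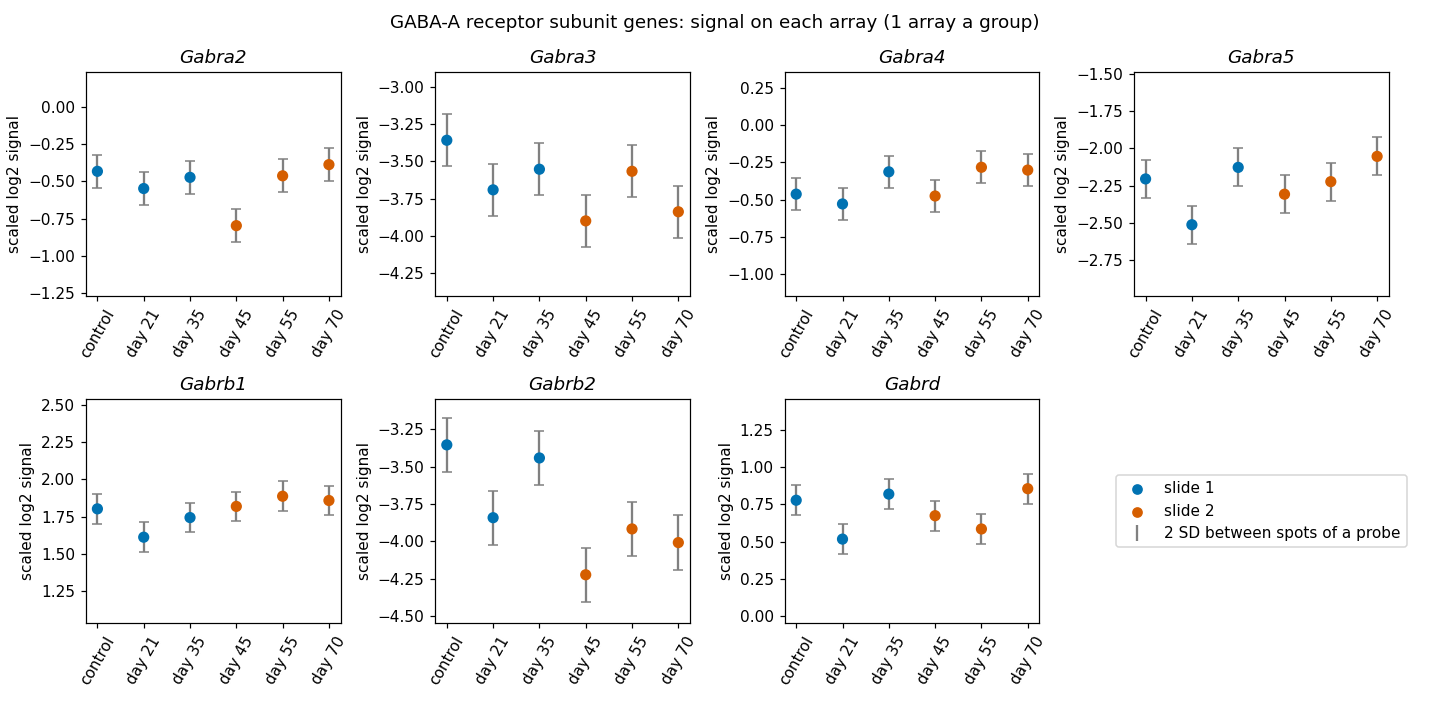
Log2 signal of each gene minus the array's 75th percentile (vertical axis) on the control array and at days 21 to 70 (horizontal axis), 1 panel a gene, each 1.5 log2 units high. Points are single arrays coloured by slide and bars are 2 SD between spots of 1 probe; *Gabrb2* and *Gabra3* have their highest point at the control and their lowest at day 45.

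At day 21 all 7 genes were below the control, with a median of -0.26 and a range of -0.49 to -0.07, whereas 60.5% of all genes were below it and their median was -0.07. All 7 stayed below the control under quantile normalization, median scaling, normexp background correction and the authors' deposited values. In the main setting, 5 of the 7 were beyond 2 SD of the spot spread, a count not made for all genes. Of all genes, 52.0% were at least as far from the control as *Gabrb1*, the nearest of the 5, and 17.2% as *Gabrb2*, the furthest. Both arrays lay on 1 slide. At day 35, on the same slide, 4 of 7 were below the control (58.3% of all genes) and the members' median was -0.04, which is also the median of all genes. None was beyond the spot spread.

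At day 45, 6 of 7 were below the control, beside 61.8% of all genes, and their median was -0.10 against -0.06 for all genes. That count was 3 of 7 under median scaling, which shifted the median of all genes at day 45 to 0.07. At day 55, 5 of 7 were below the control (58.5% of all genes), with a median of -0.03 for the members and -0.04 for all genes. At day 70, 2 of 7 were below the control (57.6% of all genes), *Gabra3* and *Gabrb2*, and the median was 0.06 against -0.04 for all genes.

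**Figure D2:**
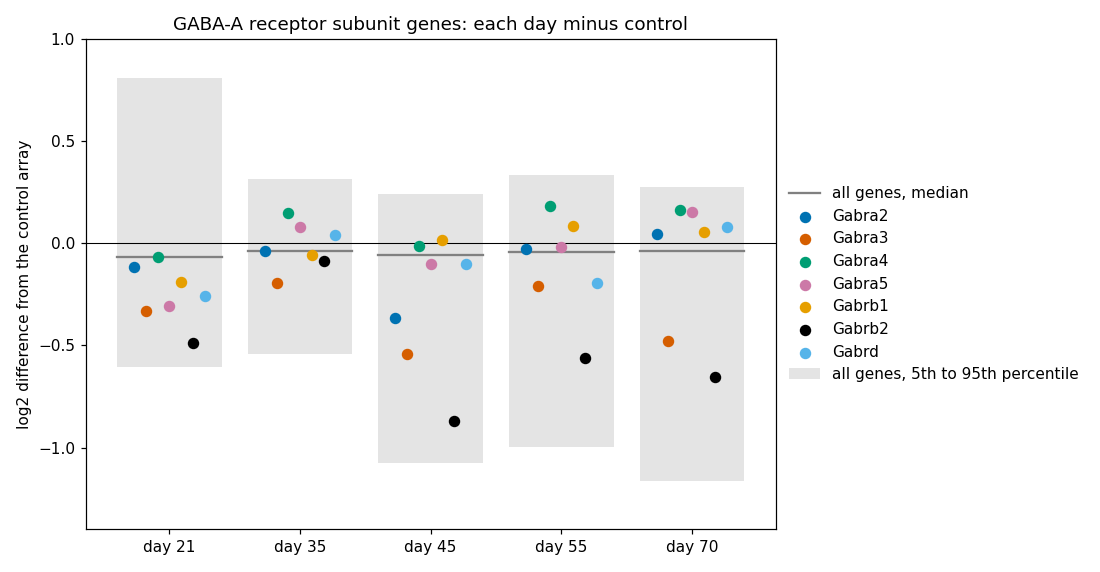
Log2 difference of each day from the control array (vertical axis) for the 7 genes (coloured points) at days 21 to 70 (horizontal axis), with the 5th to 95th percentile (grey bar) and median (grey line) of all genes compared. The 7 points lie below 0 at day 21, and no point lies outside the grey bars.

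Comparisons within a slide leave out the difference between slides. All 7 genes were higher at day 35 than at day 21, with a median of 0.22, where 53.7% of all genes were higher and their median was 0.03. This comparison uses the same day 21 array as the one above, so the pair is not independent. All 7 were higher at day 70 than at day 45, with a median of 0.18 against 0.02 for all genes, of which 55.9% were higher. That count was 6 of 7 under quantile normalization, normexp and the authors' deposited values. At day 55, 6 of 7 were higher than at day 45 (58.2% of all genes), the exception being *Gabrd* at -0.09. The comparisons of days 55 and 70 with day 45 share the day 45 array, so they are not independent either. That array had the lowest share of spots well above background, 74.5%. At day 70, 3 of 7 were higher than at day 55 (48.1% of all genes), with a median of -0.02. No member was 2-fold apart within a slide, where the share of all genes was 5.54%, 1.62%, 1.97% and 1.82% for day 35 minus day 21, day 55 minus day 45, day 70 minus day 45 and day 70 minus day 55.

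**Figure D3:**
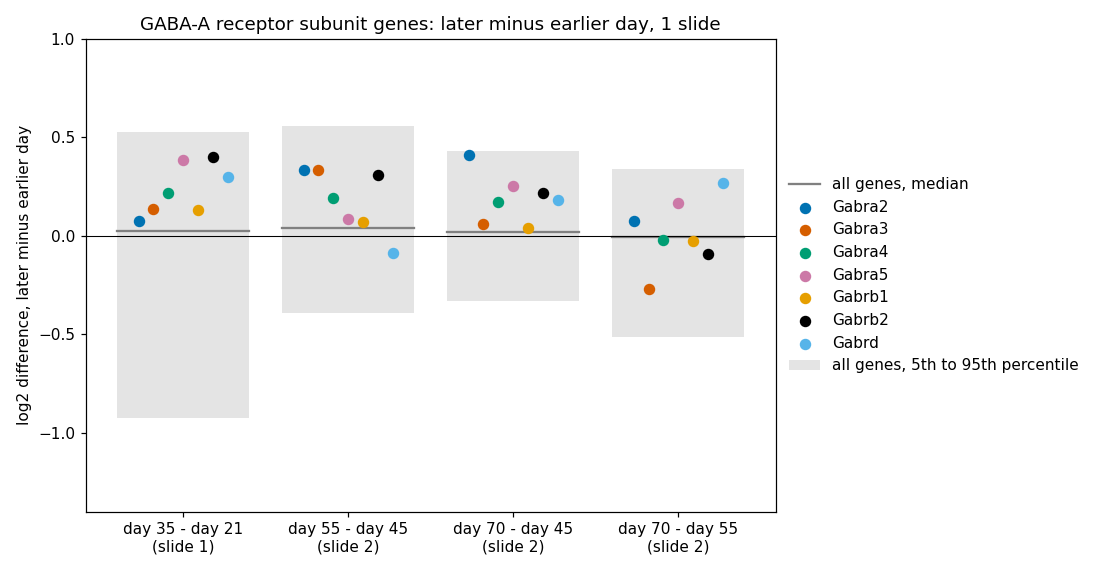
Log2 difference of a later from an earlier day (vertical axis) for pairs of arrays on 1 slide (horizontal axis), with the 7 genes as coloured points and the 5th to 95th percentile (bar) and median (line) of all genes in grey. All 7 points are above 0 for day 35 minus day 21 and for day 70 minus day 45.

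*Gabrb2* and *Gabra3* were the dimmest probes of the set, in the dimmest of 3 equal classes of the 12373 genes that passed the background filter on every array. Dim genes were lower on slide 2 as a whole: the median of that class was -0.23 at day 45, -0.11 at day 55 and -0.17 at day 70, against -0.07 at day 21 and -0.10 at day 35. In the dimmest class, 22.4% of genes were at least 1.5-fold lower at day 45, against 7.83% at day 21. The part of this in the later values of *Gabrb2* and *Gabra3* was not tested. At day 21, where the slide was shared with the control, *Gabrb2* was at -0.49. With normexp, the other background correction, the *Gabrb2* difference was -0.19 at day 21 and -0.48 at day 45. The authors' deposited values gave -0.33 and -0.36. Its spot spread of 0.26 was taken from the processed intensities, and none was computed for normexp or the deposited values. *Gabra2*, *Gabra4* and *Gabra5* lay in the middle class and *Gabrb1* and *Gabrd* in the brightest, whose medians at day 45 were -0.02 and 0.01.

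The members did not follow 1 profile. Over the 6 arrays, the 21 pairs had Pearson correlations of -0.25 to 0.90 with a median of 0.40, described without a test since arrays share slide, scaling and labelling. *Gabra3* and *Gabrb2* had the highest, 0.90, followed by *Gabra5* and *Gabrd* at 0.88, and *Gabrb1* and *Gabrb2* the lowest, -0.25. Other genes were compared if they were well above background and unsaturated on all arrays and varied at least as much as the profile. Of 7615 such genes, those most like the members' mean profile were *Zbtb18* at 0.98, *Bend6* at 0.97 and *Shcbp1l* at 0.97. For single members they were *Alg2* for *Gabra2*, *Crebbp* for *Gabra3*, *Pmch* for *Gabra4*, *Spetex2f* for *Gabra5*, *Neto1* for *Gabrb1*, *Wnt1* for *Gabrb2* and *Eif3g* for *Gabrd*. Their correlations were 0.98 to 0.99 over 6 arrays, out of 1612 genes compared for *Gabrb2* to 8886 for *Gabrb1*.

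The promoters of the 2 most alike pairs are shown, a choice made after the correlations were seen. They are the 250 bases before the gene start in RefSeq (GRCr8), 5′ to 3′, and 6 of the 7 genes matched the table. *Gabra3* (chrX:155543871-155544120, minus strand) and *Gabrb2* (chr10:27439543-27439792, plus strand) have 40.4% and 43.2% G and C, below the median of 51.2% over 33469 promoters. *Gabra5* (chr1:117516607-117516856, minus strand) and *Gabrd* (chr5:171252710-171252959, minus strand) have 76.4% and 74.0%, with 37 and 35 CpG dinucleotides against a median of 5. *Gabra3* and *Gabrb2* have 0 and 8 CpG dinucleotides. *Gabra4* has 71.6% G and C with 33 CpG dinucleotides, and *Gabrb1* has 49.2% with 8. Capitals mark the TATA box TATAAA and the GC box GGGCGG, searched on both strands.
Gabra3: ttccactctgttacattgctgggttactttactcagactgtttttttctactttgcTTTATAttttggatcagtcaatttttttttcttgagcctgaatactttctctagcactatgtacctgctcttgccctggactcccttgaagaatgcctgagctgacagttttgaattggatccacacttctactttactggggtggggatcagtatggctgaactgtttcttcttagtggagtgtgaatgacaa
Gabrb2: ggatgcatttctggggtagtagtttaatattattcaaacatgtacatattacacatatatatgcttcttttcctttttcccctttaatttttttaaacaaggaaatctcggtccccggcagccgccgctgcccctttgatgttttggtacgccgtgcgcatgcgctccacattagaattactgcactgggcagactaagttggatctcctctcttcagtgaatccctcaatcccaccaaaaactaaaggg
Gabra5: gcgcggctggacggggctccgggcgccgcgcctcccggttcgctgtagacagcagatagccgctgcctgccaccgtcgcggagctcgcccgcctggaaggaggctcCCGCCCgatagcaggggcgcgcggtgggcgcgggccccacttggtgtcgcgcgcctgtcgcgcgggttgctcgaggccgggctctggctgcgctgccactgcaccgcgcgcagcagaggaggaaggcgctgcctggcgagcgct
Gabrd: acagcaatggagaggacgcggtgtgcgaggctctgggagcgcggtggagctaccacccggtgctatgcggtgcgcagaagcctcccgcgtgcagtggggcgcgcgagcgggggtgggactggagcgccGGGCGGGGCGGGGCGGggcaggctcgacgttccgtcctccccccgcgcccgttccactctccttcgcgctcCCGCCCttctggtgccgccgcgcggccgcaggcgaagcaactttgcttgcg

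The TATA box letters were in *Gabra3* alone of the 6, and in 12.9% of all promoters. In *Gabra3* they lie on the strand opposite to the gene, so the printed strand reads TTTATA. The GC box was in *Gabra4*, *Gabra5* and *Gabrd*, and in 30.5% of all promoters. The EGR site GCGNGGGCG, which can overlap the GC box, was in *Gabra4* and in 4.29% of all promoters. The cyclic AMP half-site TGACG (18.2% of all promoters) and the E-box CACGTG (5.59%) were in none of the 6. These are matches of letters within the window and say nothing of binding.

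Of the 12 other GABA-A subunit genes on the array, 5 were well above background on all arrays. At day 21, 3 of these 5 were below the control and 2 above, with a median of -0.26, close to that of the members. The share of all genes below the control was 60.5%. *Gabrg1* differed by 0.20 at day 21, 0.07 at day 35, -0.18 at day 45, -0.06 at day 55 and 0.17 at day 70. *Gabrq* differed by 0.05 at day 21 and 0.20 at day 35, and was lower on slide 2, at -0.30, -0.37 and -0.18 for days 45, 55 and 70. *Gabrr3* was well above background at day 35 only. *Gabra6*, *Gabrg3*, *Gabre*, *Gabrp*, *Gabrr1* and *Gabrr2* were not well above background on any array.

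Genes that surround the receptor were read by list. Of the 22 measured genes of receptor anchoring, assembly and traffic, 15 were below the control at day 21, where 60.5% of all genes were, with a median of -0.22 (-0.07 for all genes), and at day 35 the median was -0.01. *Nlgn3*, an adhesion protein of inhibitory and other synapses, was lowest at day 45, at -1.12, and *Lhfpl4*, which links neuroligin-2 to the receptor, at day 70, at -1.13. Both had dim probes, with a mean scaled log2 signal of -4.09 for *Nlgn3* and -4.76 for *Lhfpl4*. *Trak2*, which tethers cargo to kinesin, was the highest of the list by median of days, at 0.12. The brightest *Gabarapl1* probe was saturated on all arrays and gave no difference, and a dimmer one read between -0.26 and 0.15.

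The list of GABA transport had 4 measured genes of 5. *Slc6a12*, a betaine and GABA transporter, was lower on slide 2, at -1.39, -1.09 and -1.38 for days 45, 55 and 70. *Slc6a11*, the astrocytic GAT3, was at -0.06 at day 21, at -0.87 at day 35 and lowest at day 70, at -1.15. *Slc6a13*, a transporter of the meninges, was 1.35 higher at day 21. These probes were dim, with mean scaled log2 signals of -3.26 for *Slc6a12*, -4.09 for *Slc6a11* and -3.54 for *Slc6a13*. Meningeal markers were also higher on that array, 9 of 9, with a median of 1.04, and their part in the *Slc6a13* value was not tested.

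Genes of GABA synthesis and breakdown had medians of -0.13, 0.06, -0.02, -0.12 and -0.04 over days 21 to 70. None of them was 2-fold apart from the control. *Gad1*, the main GABA-synthesising enzyme, was -0.14 at day 21 and -0.18 at day 70, and its spot at day 35 was left out as an outlier. *Glul*, which makes glutamine in astrocytes, had the highest median of that list, 0.15. GABA-B receptor genes had medians of 0.05, -0.13, -0.14, 0.05 and 0.01, with *Kctd12*, an auxiliary subunit, the highest by median of days (0.11) and *Kctd8*, also auxiliary, the lowest (-0.13).

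The chloride gradient genes had medians between -0.04 and 0.05 on all days. *Slc12a5*, which encodes the chloride exporter KCC2, differed by -0.34 at day 21 and lay within 0.08 of the control on the other days. A second, dimmer *Slc12a5* probe read -0.31 at day 21 and between -0.46 and -0.10 later, with the probes apart at days 35, 45 and 70 and alike at days 21 and 55. *Car2*, a carbonic anhydrase, was highest by median (0.20) and *Wnk1*, a kinase that acts on chloride transporters, lowest (-0.19). A second, dimmer *Wnk1* probe ran from -0.44 at day 45 to 0.33 at day 55. Among modulators and steroids, *Tspo*, a mitochondrial protein rich in microglia, was 1.80 higher at day 21, and *Srd5a1*, which makes neurosteroids, was lowest by median, at -0.17. A second, dimmer *Srd5a1* probe read -0.09, -0.03 and -0.30 at days 21, 35 and 45, but 0.34 at day 55 and 0.24 at day 70. *Srd5a2*, of the same enzyme family, was highest by median, at 0.05.

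**Figure D4:**
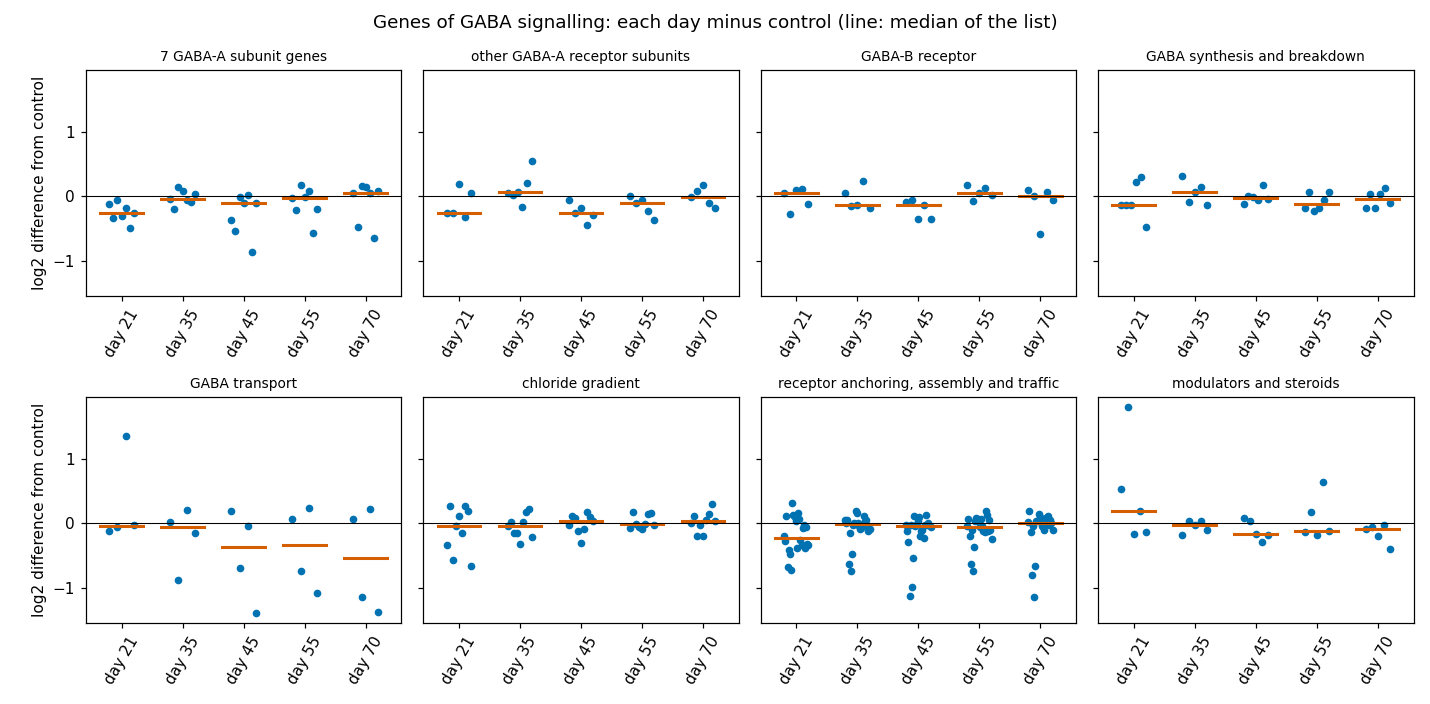
Log2 difference from the control (vertical axis) at days 21 to 70 (horizontal axis) for the 7 subunit genes and for 7 lists of genes of GABA signalling; points are genes and lines are medians. At day 21 the 7 subunit genes, the other GABA-A subunits and the anchoring list have medians of -0.26, -0.26 and -0.22.

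Cell type markers also differed between these arrays. At day 21, 11 of 12 pan-neuronal markers were below the control, with a median of -0.14, and the median was -0.30 for pyramidal cell markers (7 of 9 below), -0.23 for granule cell markers (6 of 10) and -0.08 for interneuron markers (8 of 10). The share of all genes below the control was 60.5%. Of the 2 brightest markers of each list, *Fibcd1* and *Bok* of the pyramidal list differed by -0.30 and 0.01, and *C1ql3* and *C1ql2* of the granule list by -0.28 and -0.25. The granule list ran from -0.58 for *Lct* to 0.57 for *Dsp*. Microglial markers were higher in 15 of 15 at day 21, 11 of them at least 2-fold, and their summed level was 90.7 times the 75th percentile, against 33.6 in the control, with *C1qb* at 1.94. The part of the marker values in the day 21 values of the subunits was not tested.

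Choroid plexus markers had a summed level of at least 51.7 at day 21, where *Ttr* was saturated, 26.5 at day 35 and 44.1 at day 70, against 3.20 in the control, and 3.04 and 3.12 at days 45 and 55. These sums rest mostly on *Ttr*. Its mean scaled log2 signal was 3.38, and that of *Folr1*, the next brightest of the list, was -2.62. Of the measured markers, 0 of 11 were below the control at day 21, 2 of 8 at day 35 and 2 of 9 at day 70. The shares of all genes below it were 60.5%, 58.3% and 57.6%. The members' medians on the arrays of days 21, 35 and 70 were -0.26, -0.04 and 0.06. Any part of the choroid plexus values in those of the subunits was not tested. From day 35 on, the pan-neuronal median lay between -0.03 and 0.04.

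**Figure D5:**
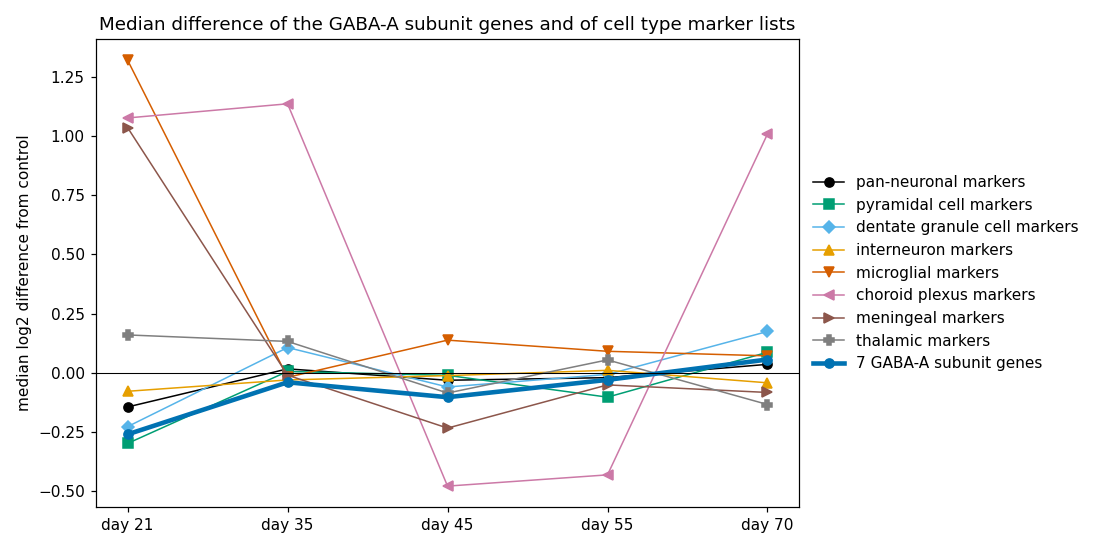
Median log2 difference from the control (vertical axis) at days 21 to 70 (horizontal axis) for the 7 subunit genes (thick line) and for 8 lists of cell type markers (thin lines). At day 21 the subunit genes lie with the neuronal lists below 0, at -0.26, while microglial markers lie at 1.32 and choroid plexus markers at 1.08.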

How the data were processed

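Hippocampal RNA was hybridised to 6 one-colour Agilent arrays, 1 a group. The authors deposited scanner files in which, per the file headers, Agilent Feature Extraction 10.7.3.1 (design 028282, build rn4) gave a background-subtracted processed intensity for each spot. The labels name Cy5, but the columns are those of the green channel. Outlier spots, 346 to 470 an array, were left out. The log2 intensity was scaled by subtracting the array's 75th percentile. Of 30367 probes, 9579 had no gene name and were not used; the others were named through RefSeq accessions or symbols, and the brightest by mean stood for its gene. A comparison took the genes that passed the background filter on either array. With 1 array a group, no p-value was computed, and precision is limited by that number. The authors also deposited a table of intensity values for whose making the sources used here give no account. Members and gene lists were chosen with earlier results of these data known. Members, genes at least 2-fold from the control and the highest and lowest of each list by median were to be named. Some of them are not reported here. The 3 brightness classes were set after values were seen. Calculations used Python 3.11.15, pandas 2.3.3 and limma 3.58.1 (normexp, offset 50), and were checked on simulated data.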

Additional observations from a re-analysis of the deposited data

How the results depend on the processing

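The count of 2-fold values stayed at 0 of 35 under each other scaling, background correction, probe choice, outlier treatment, baseline and background filter, and was 2 at a threshold of 1.5-fold. In a check chosen after seeing the data, those 2 became 1 under median scaling and 0 under quantile normalization, normexp, the deposited values and the mean of the other 5 arrays as baseline. The members' median at day 21 ranged from -0.27 to -0.16 over the alternatives, the value of -0.16 being against the mean of the other 5 arrays. Against that same baseline the median was 0.12 at day 35 and 0.065 at day 55. Median scaling gave 0.019 at day 45, 0.050 at day 55 and 0.15 at day 70. The authors' deposited values gave 0.082 for day 55 minus day 45 and 0.10 for day 70 minus day 45. The cause was not tested. *Gabrb2* kept its sign on days 21, 45, 55 and 70 under all alternatives, but its range was -0.53 to -0.053 at day 21, -0.87 to -0.36 at day 45, -0.56 to -0.14 at day 55 and -0.65 to -0.25 at day 70. *Gabra3* ranged from -0.37 to -0.048 at day 21, -0.54 to -0.25 at day 45 and -0.48 to -0.22 at day 70. The genes past 2-fold at days 21, 35, 45, 55 and 70 numbered 755, 216, 870, 777 and 1016, but between 50 and 269 on each day with normexp, and 481, 100, 210, 244 and 266 with the deposited values. With the mean of all probes they numbered 343 at day 35 and 1345 at day 45. Quantile normalization gave 112 higher and 132 lower at day 35 (61 higher, 155 lower with the 75th percentile), 199 higher with 302 lower for day 45 (80, 790), 186 with 418 for day 55 (90, 687) and 223 with 405 for day 70 (93, 923). The deposited values gave 367 higher and 114 lower at day 21 (497 and 258 in the scanner values), 66 higher with 144 lower for day 45, 72 with 172 for day 55, and for day 70 72 with 194. No paired analysis was possible because each group has 1 array. Dim probes, with less signal over background, limit *Gabra3* and *Gabrb2* most.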
